A study of Mus musculus with 8 samples.

Results

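Lysosomes are the acid compartments in which macrophages digest what they engulf. The 39 genes described here code for lysosomal membrane proteins, proteases, sugar and lipid hydrolases, subunits of the vacuolar proton pump, the small GTPases Rab7 and Rab29 with the adaptor Plekhm1, and the transcription factors Tfeb and Tfe3. They were taken by symbol from 21887 mouse protein-coding genes, and all 39 were found. Acetylation of histone H4, which marks active promoters and enhancers, was mapped by ChIP-seq with a polyclonal acetyl-H4 antibody in macrophages grown from the bone marrow of C57BL/6 mice. The cells were untreated, stimulated with PAM3 (PAM3CSK4, a synthetic lipopeptide that mimics those of bacteria and acts through Toll-like receptors), treated with 25HC (25-hydroxycholesterol, an oxysterol that macrophages make from cholesterol), or treated with 25HC and then stimulated with PAM3. Each of the 4 groups has 1 library lettered A and 1 lettered B in its title. The letters were taken as mouse A and mouse B, that is, as the same animals in every group. That reading is an assumption, and mouse A and mouse B below stand for those letters. The stimulation time in the labels, which has no unit, is 0 without PAM3 and 18 with it, so PAM3 and that time cannot be told apart.

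As background, the vacuolar ATPase pumps protons into the lysosome. Its V1 sector splits ATP in the cytosol and its V0 sector carries protons through the membrane. The acid interior activates the cathepsins and the other hydrolases. Rab7 on late endosomes binds adaptors such as Plekhm1, which help the endosome or phagosome to fuse with the lysosome. Tfeb and Tfe3 bind E-boxes of the form CACGTG in many lysosome gene promoters and raise the transcription of those genes when nutrients are short or the lysosome is damaged.

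The measure throughout is called length, the bp of a library's deposited peaks that lie in a gene's window, which is the GRCm38 gene body with 5 kb on either side. It is the extent of the mark as the peak caller drew it, and says nothing of RNA. Pairs of values are given for mouse A and then mouse B. In such bulk samples fewer cells with the mark and less of the mark per cell cannot be told apart. Changes are on a log2 scale after adding 500 bp and subtracting each library's median, and a gene is said to have risen or fallen where limma gave a Benjamini-Hochberg adjusted p under 0.05 over the 14589 genes tested. All 39 genes passed the minimum of 500 bp of mean called length.

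The libraries held 48446 to 54552 peaks and covered 56.6 to 72.4 Mb. The library of PAM3 from mouse A had the lowest covered length and that of PAM3 from mouse B the highest. The cells carried the mark at macrophage genes: all 10 macrophage markers had peaks in all 8 libraries. Their summed called lengths were 68.7 to 79.5 kb without PAM3 and 75.5 to 97.3 kb with it. Itgam, Adgre1 and Cd14 rose on average with PAM3. Adgre1 alone had 3247 to 5210 bp without PAM3 and 13703 to 21938 bp with it. With PAM3 alone Cd14 overlapped (2499 and 3510 bp, against 2973 and 2784 bp untreated). Csf1r went the other way, though not called, with 8648 to 11021 bp without PAM3 and 5178 to 8142 bp with it. Ly6g (neutrophils), Cd3e and Ncr1 (T and NK cells), Pax5 (B cells), Col1a2 (fibroblasts), Calcr (osteoclasts) and Gata1 (erythroid cells) were at 0 in all 8 libraries. Other markers of those lists had peaks in all 8: 3 of 6 for neutrophils, 3 of 5 for T and NK cells, 1 of 4 for B cells, 2 of 5 for fibroblasts and endothelium, 4 of 6 for osteoclasts and 1 of 4 for erythroid cells. Of the neutrophil markers Camp rose and Elane fell on average with PAM3. The 6 dendritic cell markers summed to 31.2 to 33.6 kb in untreated cells, 19.8 to 22.9 kb with PAM3, 25.3 to 29.3 kb with 25HC and 19.5 to 22.8 kb with 25HC then PAM3. Of these, Clec9a and Siglech fell on average with PAM3 and Xcr1 rose (4489 and 4531 bp untreated, 5492 and 6359 bp with PAM3). The part of such cells in the results below was not tested.

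The lysosome genes were broadly marked in every group. Of the 39 genes, 37 had a peak in all 8 libraries (94.9%), against 12762 of the 14589 genes tested (87.5%). Their median mean called length was 4586 bp, against 2670 bp for all genes tested, in windows of similar median size (31829 and 32347 bp). Per kb of window, the mean over the 8 libraries was highest for Cd68 (391 bp), Ctsk (308 bp), Ctsb (285 bp), Npc2 (267 bp) and Plekhm1 (238 bp), and lowest for Atp6v1h (15.8 bp) and Glb1 (20.4 bp). Npc2, which hands cholesterol to the lysosomal exporter Npc1, varied least, with a highest library only 1.11 times the lowest. Among genes above 0 in every library, Sgsh varied most (5.93 times), followed by Lamp2 (4.50 times) and Ctsc (4.24 times).

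**Figure D1:**
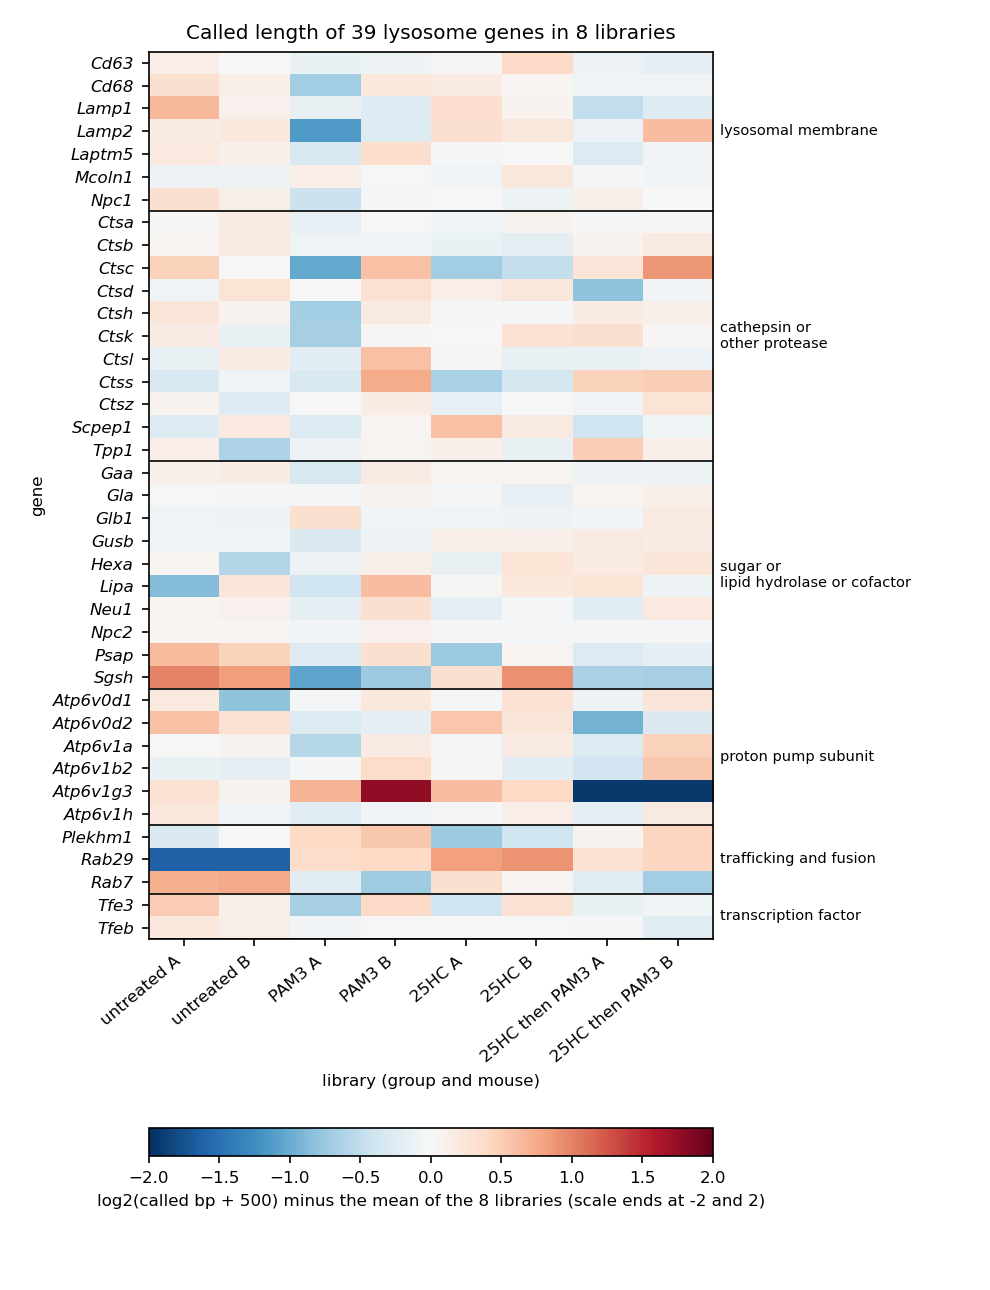
Called length of the 39 lysosome genes (rows, grouped by role) in the 8 libraries (columns, by group and mouse), as log2(called bp + 500) minus the gene's mean over the 8 libraries, red above and blue below that mean. Most rows are pale, and the strongest colours belong to Rab29 (at 0 bp in both untreated libraries), Atp6v1g3 (at 0 bp in both libraries of 25HC then PAM3) and Sgsh.

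Most starts were marked in every library. A RefSeq promoter table on GRCm38.p6 gave the start of 33 of the 39 genes, and in 29 of the 33 a peak reached within 1 kb of a start in all 8 libraries. The same held for 7957 of 11703 tested genes with a start (68.0%). The exceptions were Rab29, Atp6v1g3, the aspartic protease gene Ctsd and the tripeptidyl peptidase gene Tpp1. The Ctsd start was uncovered in 1 library (25HC then PAM3, mouse A), and so was that of Tpp1 (untreated, mouse B). Within 1 kb of a start, called length was higher in all 4 libraries with PAM3 than in any of the 4 without for 3 of the 33 genes (Ctsk, Lipa and Laptm5, against 4.77% of the 11703) and lower for 2 (Sgsh and Atp6v1a, against 7.61%). In the rest of the window it was higher for 1 (Plekhm1, against 7.25%) and lower for 4 (Lamp1, Cd63, Rab7 and Sgsh, against 9.24%).

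The promoters were searched for the E-box bound by Tfeb and Tfe3, with no test. Within the 300 bases from 250 before to 50 after the start, CACGTG (the same on both strands) was found in 11 of the 33 genes (33.3%), against 7.15% of all 32851 promoters in the table and 11.0% of the 11703 tested genes with a promoter. The longer TCACGTGA, which contains CACGTG, was found in 6 (18.2%), namely Ctsa, Ctsd, Gla, Mcoln1, Atp6v0d1 and Atp6v1a, against 0.974% of all promoters and 1.92% of tested genes. The form with a further G before and C after was in none of the 33, against 0.326% of all promoters. A match in letters is a description, not a bound site. Shown 5′ to 3′ on the gene's strand with the motif in capitals are Lamp1, which has 4 copies of CACGTG, Mcoln1, Ctsd and Atp6v1a, which hold the longer motif in a membrane channel, a protease and a pump gene, and Sgsh, the gene with the largest fall among those above 0 in every library, which has 1 copy of CACGTG just before its start. They are credited to RefSeq and lie, in that order, at chr8:13159080-13159171 (plus strand), chr8:3500453-3500500 (plus), chr7:142387899-142387946 (minus), chr16:44139364-44139411 (minus) and chr11:119355514-119355559 (minus).
Lamp1: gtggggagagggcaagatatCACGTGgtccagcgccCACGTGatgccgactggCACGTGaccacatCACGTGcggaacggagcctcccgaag
Mcoln1: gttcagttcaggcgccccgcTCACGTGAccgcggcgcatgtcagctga
Ctsd: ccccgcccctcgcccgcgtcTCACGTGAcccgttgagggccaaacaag
Atp6v1a: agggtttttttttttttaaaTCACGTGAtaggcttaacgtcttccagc
Sgsh: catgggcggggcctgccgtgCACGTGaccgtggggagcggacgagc

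Stimulation with PAM3 alone was first compared with no treatment. Rab29 rose and Sgsh fell, and the other 37 genes did not pass the test. These 2 of 39 genes (5.13%) compare with 3.87% of all genes tested (1.89% rose and 1.97% fell). The median log2 change was −0.08 for the 39 genes and −0.01 for all genes. At an unadjusted p under 0.05, 8 of the 39 differed (3 higher, 5 lower), against 19.2% of all genes. When the same stimulus followed 25HC and was compared with 25HC alone, Sgsh and Atp6v1g3 fell and none rose, 2 of 39 against 5.02% of all genes (2.73% rose and 2.3% fell), with a median of −0.05 against −0.02, and 10 of the 39 were under an unadjusted p of 0.05, against 21.4%. Averaged over both backgrounds (4 libraries with PAM3 against 4 without), Rab29 and Plekhm1 rose and Sgsh, Atp6v0d2 and Rab7 fell, 5 of 39 (12.8%) against 11.8% of all genes (5.94% rose and 5.88% fell). For Rab29 that average rests on the untreated group at 0 bp, since after 25HC it was lower with PAM3. The median of that average effect was −0.10 against −0.01, and 9 of the 39 were under an unadjusted p of 0.05, against 26.9%. The share of lysosome genes that passed was thus near that of all genes in all 3 comparisons. With only the peaks of a −log10 q of at least 5, limma called 0 of 13422 genes in each of the 7 contrasts, so the 0 of the 39 genes there is not particular to them.

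Summed over the 39 genes, called length was 219.9 and 207.6 kb in the untreated libraries of mouse A and mouse B, 167.4 and 225.1 kb with PAM3, 193.5 and 205.3 kb with 25HC, and 186.9 and 210.1 kb with 25HC then PAM3. The groups overlap on that scale. As a share of each library's covered length, the genes made up 0.317% to 0.323% in the 4 libraries without PAM3 and 0.294% to 0.311% in the 4 with it, so every library with PAM3 lay below every library without. The same share was not computed for all genes, so whether this is particular to the 39 genes was not tested. In bp, 5 of the 39 genes were lower in all 4 libraries with PAM3 than in any of the 4 without (Lamp1, Cd63, Sgsh, Atp6v0d2 and Rab7; 12.8%, against 9.66% of all genes), and Plekhm1 and Glb1 were higher (5.13%, against 7.11%).

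**Figure D2:**
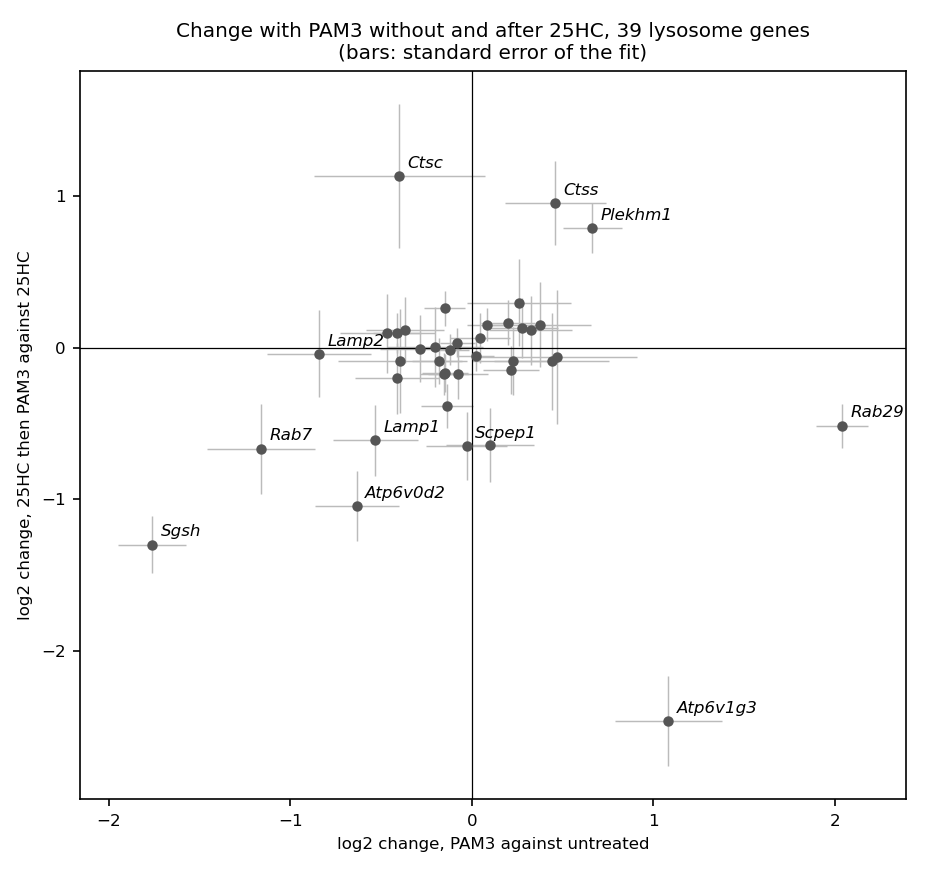
Log2 change with PAM3 in cells without 25HC (horizontal axis) and after 25HC (vertical axis) for the 39 genes, with bars of 1 standard error from the fit. Sgsh lies low on both axes (−1.76 and −1.30), Plekhm1 lies high on both (0.66 and 0.79), and Rab29 and Atp6v1g3 lie in the lower right, each with 1 group at 0 bp, where the 500 bp added before the log sets the size.

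Sgsh, which codes for the sulfatase that removes N-linked sulfate from heparan sulfate, had the largest fall among the genes above 0 in every library. Its called length in mouse A and mouse B was 5170 and 4595 bp untreated, 872 and 1217 bp with PAM3, 3060 and 4865 bp with 25HC, and 1319 and 1293 bp with 25HC then PAM3. The 4 libraries with PAM3 averaged 1175 ± 207 bp (SD, n = 4), all below the lowest of the other 4, which averaged 4423 ± 938 bp (SD, n = 4). The log2 change was −1.76 (SE 0.19, limma adjusted p = 0.0170) with PAM3, −1.30 (SE 0.19, limma adjusted p = 0.0257) after 25HC and −1.53 (SE 0.13, limma adjusted p = 0.00443) on average. The average fall stayed called with any single library left out (limma adjusted p up to 0.0186). The fall with PAM3 alone was lost without untreated A (0.0673) or PAM3 B (0.0540). The fall after 25HC was lost without either untreated library, 25HC B or either library of 25HC then PAM3 (0.0532 to 0.0894), and with the mouse as a block (0.0560).

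Most of the loss lay inside the gene. At the start (chr11:119353779-119355977) a peak was called in all 8 libraries, and covered 2160 and 2072 bp untreated and 872 and 1217 bp with PAM3. The stretch at chr11:119351641-119352911, inside the gene, held 1190 and 1000 bp untreated, 1130 and 1271 bp with 25HC, and 0 bp in all 4 libraries with PAM3. A stretch further into the gene (chr11:119344443-119345962) held 1376 and 1162 bp untreated, 1429 bp in 25HC B and 0 bp in the other 5 libraries. More than 1 kb from the start, Sgsh had 3725 and 3160 bp untreated, 1626 and 3431 bp with 25HC and none in any library with PAM3. The window overlaps those of Card14 and Slc26a11, so the mark there is not that of Sgsh alone. Such an overlap holds for 28 of the 39 genes.

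**Figure D3:**
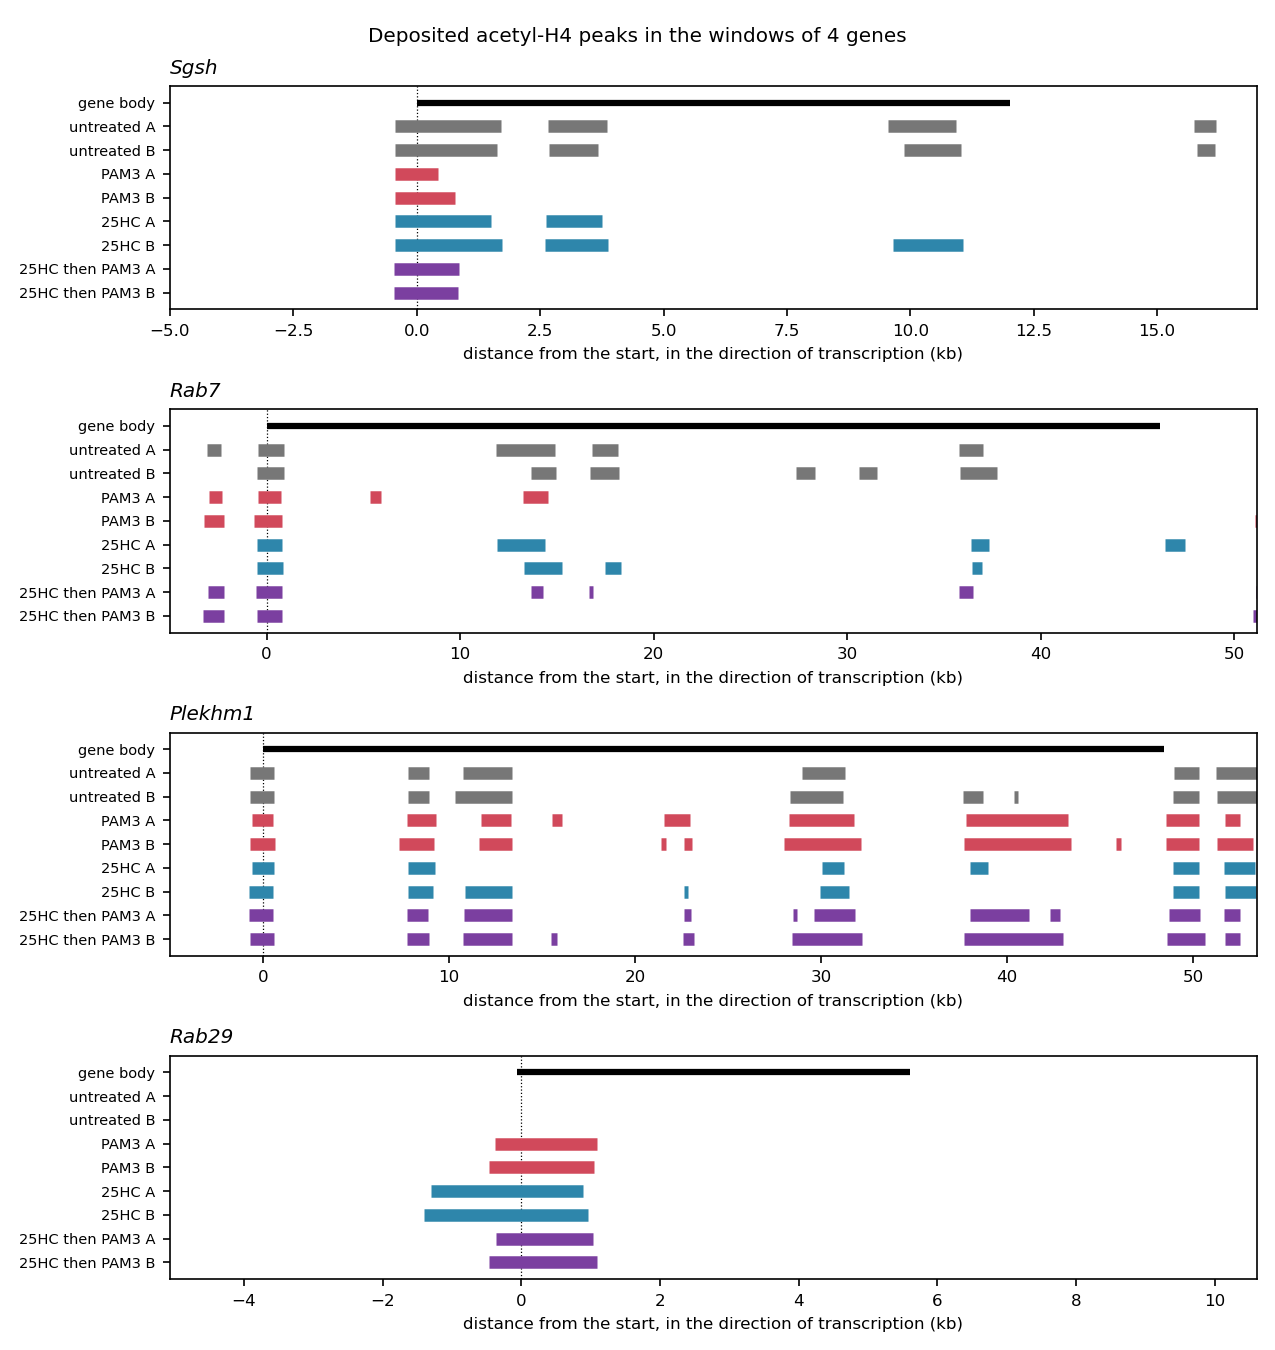
Deposited peaks (coloured bars, by library) against distance from the transcription start in kb for Sgsh, Rab7, Plekhm1 and Rab29, with the gene body in black and 5 kb on either side. In Sgsh and Rab7 the start peak is present in all 8 libraries, while the peaks away from the start cover less length with PAM3. In Plekhm1 a long peak in the far part of the gene is present in all 4 libraries with PAM3. Rab29 has no peak in the untreated libraries.

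Of the trafficking genes, Rab7, the GTPase of late endosomes, fell on average with PAM3. It had 7700 and 7978 bp untreated, 3782 and 2539 bp with PAM3, 5744 and 4656 bp with 25HC, and 3790 and 2585 bp with 25HC then PAM3. The groups with and without PAM3 did not overlap (3174 ± 707 and 6520 ± 1591 bp, SD, n = 4). The average log2 change was −0.91 (SE 0.21, limma adjusted p = 0.0469). The call was lost when any library other than PAM3 A was left out (untreated A 0.112, untreated B 0.114, PAM3 B 0.0842, 25HC A 0.129, 25HC B 0.0963, 25HC then PAM3 A 0.0527, 25HC then PAM3 B 0.106). Neither single comparison passed (−1.16, limma adjusted p = 0.103, and −0.67, limma adjusted p = 0.280). The start held 1199 to 1405 bp within 1 kb of it in all 8 libraries, with overlapping groups, and the lower values lay elsewhere. The rest of the window held 6379 and 6573 bp untreated, 2583 and 1137 bp with PAM3, 4451 and 3313 bp with 25HC, and 2438 and 1295 bp with 25HC then PAM3. A stretch in the first part of the gene (chr6:88030028-88033398) held 3044 and 1287 bp untreated, 2484 and 1946 bp with 25HC, 1316 and 0 bp with PAM3, and 629 and 0 bp with 25HC then PAM3. An upstream stretch (chr6:88047450-88048567) went the other way, with 670 and 1047 bp with PAM3 and 826 and 1087 bp with 25HC then PAM3. It held 749 and 0 bp untreated and 0 bp in both 25HC libraries.

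Plekhm1, the adaptor that binds Rab7, went the other way and rose on average with PAM3. It had 10822 and 13177 bp untreated, 17716 and 19509 bp with PAM3, 7832 and 10007 bp with 25HC, and 14032 and 18019 bp with 25HC then PAM3. All 4 libraries with PAM3 (17319 ± 2327 bp, SD, n = 4) exceeded all 4 without (10460 ± 2208 bp, SD, n = 4). The average log2 change was 0.73 (SE 0.12, limma adjusted p = 0.0182), lost without untreated A (0.0511) or 25HC A (0.0539). With PAM3 alone it was 0.66 (limma adjusted p = 0.0954) and after 25HC 0.79 (limma adjusted p = 0.0572). Most of the added length lay in a single stretch inside the gene (chr11:103369283-103375052), which held 5488 and 5761 bp with PAM3 and 3734 and 5335 bp with 25HC then PAM3, but 0 and 1302 bp untreated and 939 and 0 bp with 25HC. A neighbouring stretch (chr11:103380488-103384674) was called in all 8 libraries, with 2284 and 2848 bp untreated and 3465 and 4122 bp with PAM3. At the start, Plekhm1 had 1119 to 1333 bp in every library. Its window overlaps that of Arhgap27.

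**Figure D4:**
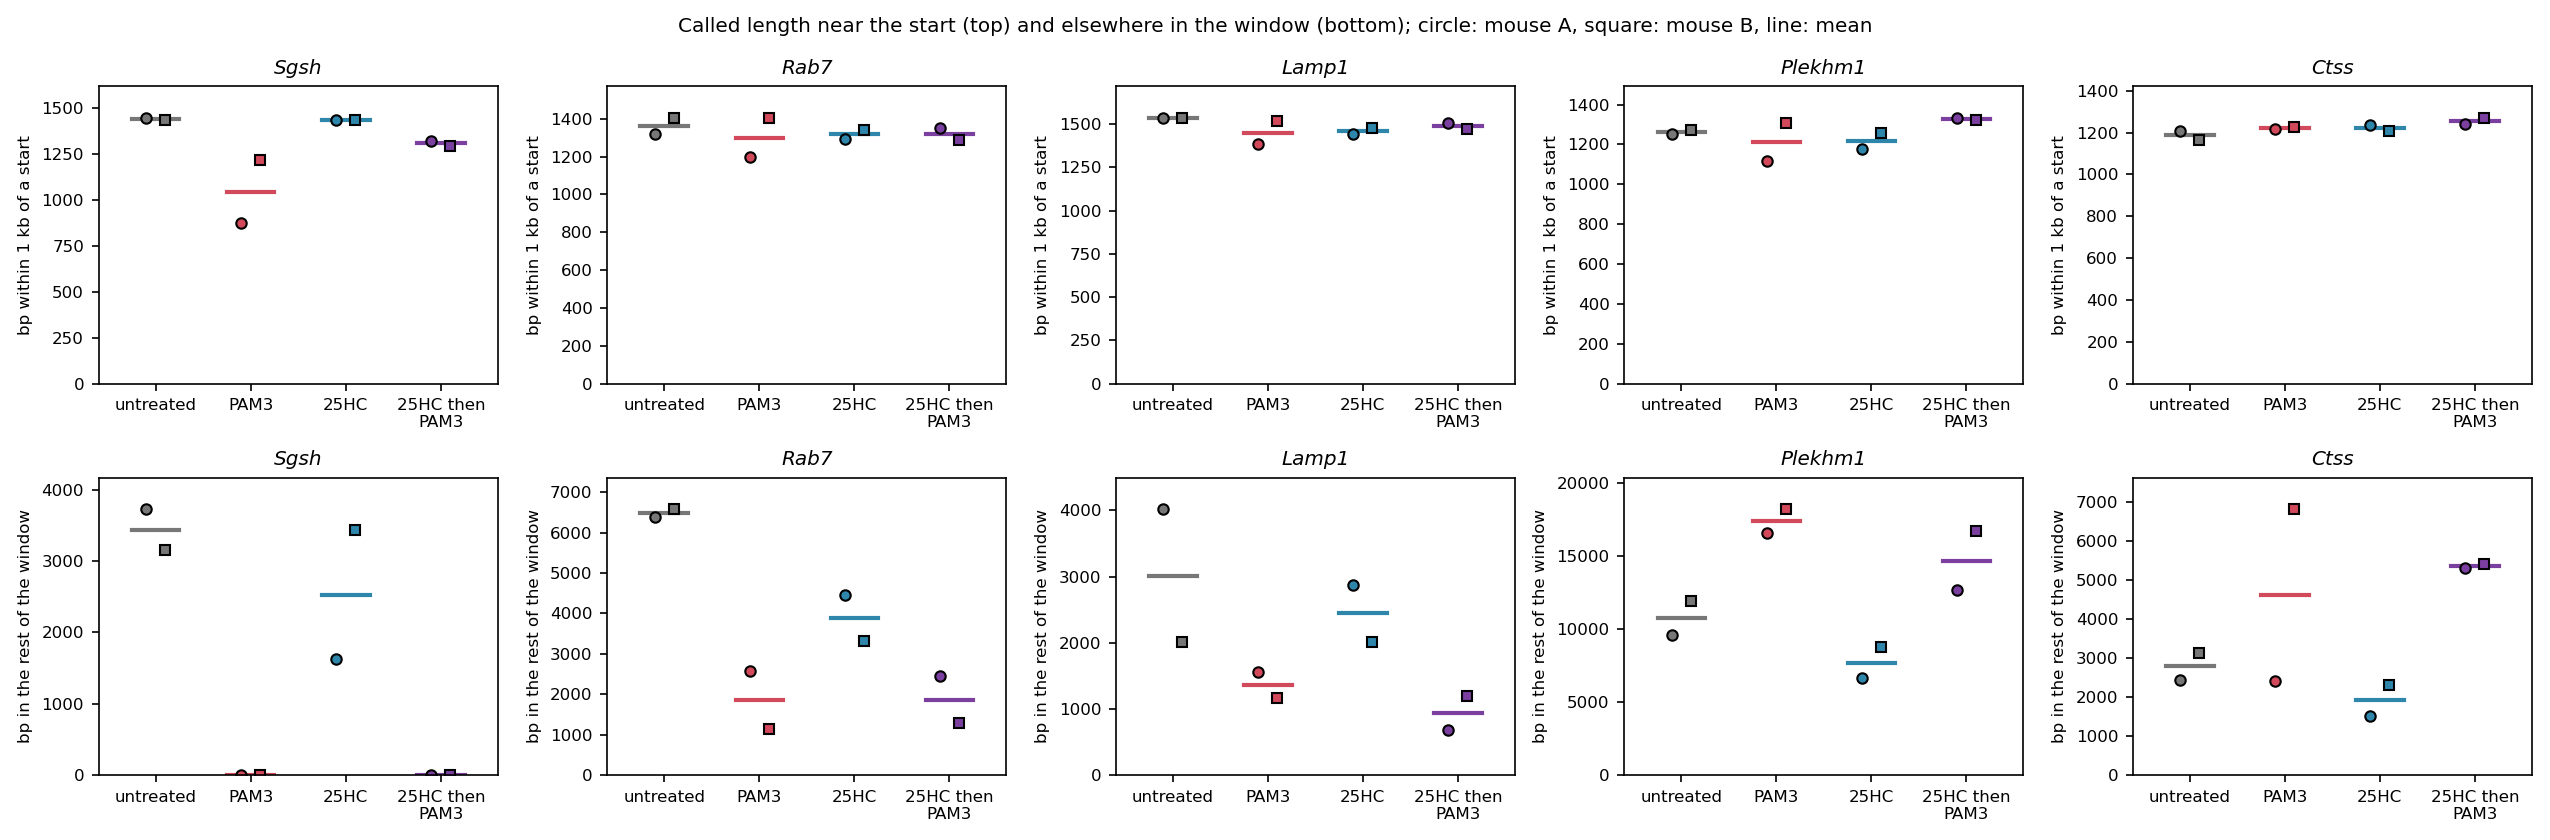
Called length within 1 kb of a start (top row) and in the rest of the window (bottom row) for 5 genes, by group, with circles for mouse A, squares for mouse B and lines for group means. In Rab7, Lamp1 and Plekhm1 the top row is flat while the bottom row separates the libraries with and without PAM3, in Sgsh both rows are lower with PAM3, and in Ctss (not called) the bottom row of PAM3 spans 2414 to 6813 bp.

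Rab29, a GTPase of the Golgi and of damaged lysosomes, was the 1 gene of the 39 called with 25HC alone. It had 0 and 0 bp untreated, 1466 and 1518 bp with PAM3, 2195 and 2361 bp with 25HC, and 1399 and 1559 bp with 25HC then PAM3. The whole signal was a single peak over the start (chr1:131865875-131868374). Rab29 rose with PAM3 (limma adjusted p = 0.0117, or 0.0414 in the fit blocked on mouse) and with 25HC (limma adjusted p = 0.0188), and on average with PAM3 (limma adjusted p = 0.0113) and with 25HC (limma adjusted p = 0.0471). After 25HC the direction was the opposite, with lower values in both libraries with PAM3 (log2 −0.51, limma adjusted p = 0.110), so the average PAM3 rise comes from the untreated group at 0. No log2 size is read from the calls, since the untreated group is at 0 and the 500 bp sets it; libraries that are both at 0 also show no spread, so these p-values can be too small. The 150 bases before the start (chr1:131867127-131867276, plus strand, GRCm38.p6, RefSeq) are shown because that peak covered them in every library but the untreated ones, and no letter is in capitals because none of the 3 motifs searched is in them.
Rab29: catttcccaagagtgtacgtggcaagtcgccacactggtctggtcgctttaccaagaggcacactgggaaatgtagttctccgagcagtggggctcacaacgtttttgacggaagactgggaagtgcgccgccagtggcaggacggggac

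In 25HC against untreated, Rab29 was the only one of the 39 genes called, against 0.0343% of all genes tested (0.00685% rose, which is Rab29 alone, and 0.0274% fell). At an unadjusted p under 0.05, 3 of the 39 differed, against 4.65%. The other genes' log2 changes ran from −0.82 (Psap, limma adjusted p = 0.899) to 0.50, and the median was 0.01. On average over 25HC, Rab29 was again the only gene of the 39 called, against 0.0685% of all genes (0.0137% rose and 0.0548% fell), and 6 were under an unadjusted p of 0.05, against 11.4%. Both 25HC calls were lost with the mouse as a block (limma adjusted p = 0.140 and 0.152). The call of 25HC against untreated was also lost without either PAM3 library, 25HC B or either library of 25HC then PAM3 (0.0741 to 0.117). The average 25HC call was lost without either untreated library, PAM3 B, either 25HC library or 25HC then PAM3 B (0.0521 to 0.129), and the average PAM3 call without 25HC B (0.0527). Of 14589 genes, 15 (0.103%) were at 0 in both untreated libraries and above 0 in both libraries of every other group.

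Among the proton pump subunits, Atp6v0d2 fell on average with PAM3 and Atp6v1g3 fell where PAM3 followed 25HC. The other 4, including Atp6v1a, the ATP-splitting subunit, did not pass in any comparison. Atp6v0d2, the d subunit form abundant in osteoclasts and macrophages, had 15143 and 12475 bp untreated, 8189 and 8605 bp with PAM3, 14922 and 11916 bp with 25HC, and 4958 and 8030 bp with 25HC then PAM3. The groups with and without PAM3 did not overlap (7446 ± 1676 and 13614 ± 1656 bp, SD, n = 4). The average log2 change was −0.84 (SE 0.16, limma adjusted p = 0.0304). The call was lost without any 1 of the 6 libraries of the untreated, PAM3 and 25HC groups (0.0602 to 0.0878) and with the mouse as a block (0.0590). A stretch inside the gene (chr4:19891474-19900162) held 7618 and 5772 bp untreated and 4209 and 4743 bp with PAM3. Another (chr4:19917940-19921106) held 1728 and 1296 bp untreated, 3068 and 2101 bp with 25HC, 1617 and 0 bp with 25HC then PAM3, and 0 bp in both PAM3 libraries. The 6 osteoclast markers summed to 20.4 to 23.5 kb without PAM3 and 20.3 to 26.1 kb with it, and Acp5 among them rose on average.

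Its close relative Atp6v0d1, the d form found in most cells, had 5384 and 2439 bp untreated, 4549 and 5409 bp with PAM3, 4542 and 5769 bp with 25HC, and 4287 and 5522 bp with 25HC then PAM3. Those groups overlap, and the average PAM3 effect was 0.17 (limma adjusted p = 0.673). Atp6v1a had 11011 and 11528 bp untreated, 7156 and 12269 bp with PAM3, 10634 and 12271 bp with 25HC, and 8908 and 15210 bp with 25HC then PAM3. With PAM3 the library of mouse A lay below both untreated libraries and that of mouse B above them, and the average effect was −0.10 (limma adjusted p = 0.781). Stretches inside Atp6v1a went both ways. That at chr16:44130048-44131626 held 1473 to 1568 bp in every library with PAM3 and 0 bp in every library without. That at chr16:44126050-44126623 held 0 bp in every library with PAM3 and 509 to 574 bp in every library without. The other V1 subunits, Atp6v1b2 (2000 to 4235 bp) and the regulatory Atp6v1h (1133 to 1750 bp), were called in all 8 libraries and passed no test.

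Atp6v1g3, a stalk subunit form best known from kidney, had 1853 and 1500 bp untreated, 2540 and 6020 bp with PAM3, 2412 and 2015 bp with 25HC, and 0 and 0 bp with 25HC then PAM3. It fell in 25HC then PAM3 against 25HC (limma adjusted p = 0.0172, or 0.0454 in the fit blocked on mouse) and against PAM3 (limma adjusted p = 0.0225, and 0.0751 with the block). As for Rab29, libraries that are both at 0 show no spread, so these p-values can be too small. The first call was lost without either 25HC library or 25HC then PAM3 B (0.0621 to 0.0765), the second without either untreated library, either 25HC library or 25HC then PAM3 B (0.0579 to 0.0699). In the other 6 libraries a peak of 821 to 1570 bp lay in the upstream flank (chr1:138270661-138272230). Within 1 kb of the start, called length was found only in the 25HC libraries (510 and 978 bp). The high PAM3 values came from the 3′ end of the gene (chr1:138288694-138292180), with 1372 and 3380 bp. Of the 14589 genes, 55 (0.377%) were at 0 in both libraries of 25HC then PAM3 alone. In 25HC then PAM3 against PAM3, Atp6v1g3 was the only one of the 39 genes called, against 1.3% of all genes (0.665% rose and 0.637% fell), and 3 were under an unadjusted p of 0.05, against 14.9%. The other genes with the smallest p there were Gusb (0.35, limma adjusted p = 0.164) and Lamp2 (0.95, limma adjusted p = 0.205).

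Whether 25HC changed the response to PAM3 was tested as the difference between both PAM3 responses. None of the 39 genes passed with limma, nor did any of the 14589 (0%). At an unadjusted p under 0.05, 4 of the 39 and 1438 genes in all (9.86%) differed. Rab29 (limma adjusted p = 0.0734) and Atp6v1g3 (limma adjusted p = 0.0982) came closest, each with a group at 0. Without PAM3 A both passed (0.0246 and 0.0156), and Rab29 also passed without 25HC then PAM3 A (0.0312). Next was Npc1, the cholesterol exporter of the lysosomal membrane, with 12576 and 10885 bp untreated, 7303 and 9623 bp with PAM3, 9953 and 9215 bp with 25HC, and 10860 and 10025 bp with 25HC then PAM3. Its difference was 0.50 (limma adjusted p = 0.459).

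**Figure D5:**
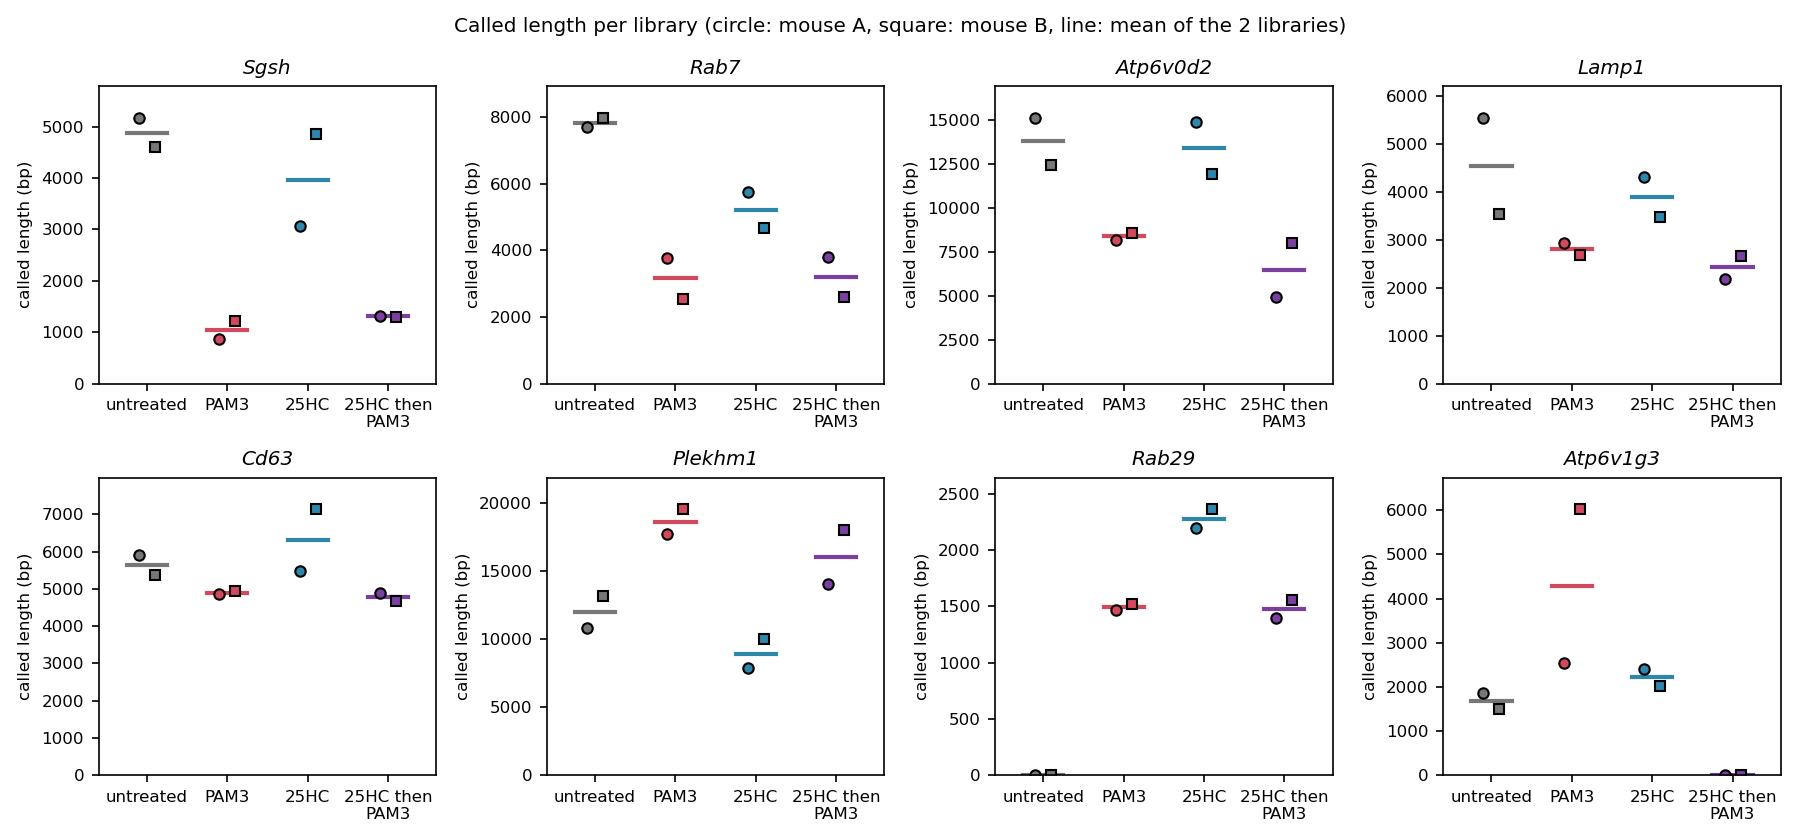
Called length in bp of 8 genes by group, with circles for mouse A, squares for mouse B and lines for the mean of the 2 libraries. Sgsh, Rab7, Atp6v0d2, Lamp1 and Cd63 are lower in all 4 libraries with PAM3 than in any of the 4 without, Plekhm1 is higher, and Rab29 and Atp6v1g3 each have 1 group at 0 bp.

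No gene of the lysosomal membrane passed a test, where at most 11.8% of all genes passed (the average PAM3 effect). That effect was below 0 for 6 of the 7 (median −0.26) and for 7671 of all 14589 genes (median −0.01). Lamp1, a main glycoprotein of the membrane, had 5553 and 3541 bp untreated, 2937 and 2691 bp with PAM3, 4318 and 3491 bp with 25HC, and 2193 and 2667 bp with 25HC then PAM3. All 4 libraries with PAM3 lay below the other 4, with an average log2 change of −0.57 (limma adjusted p = 0.0859). Its start held 1383 to 1537 bp in every library. The lower values came from an upstream stretch (chr8:13154257-13156985) with 2285 and 1683 bp untreated and 999 and 1170 bp with PAM3, and from a downstream stretch (chr8:13177616-13179868) called in all 4 libraries without PAM3 and in none with it. Cd63, a tetraspanin of late endosomes, had 5912 and 5366 bp untreated, 4857 and 4939 bp with PAM3, 5468 and 7131 bp with 25HC, and 4879 and 4658 bp with 25HC then PAM3. Its groups with and without PAM3 also did not overlap, with an average log2 change of −0.26 (limma adjusted p = 0.176).

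Lamp2, the partner of Lamp1, had 3289 and 3476 bp untreated, 1060 and 2321 bp with PAM3, 3753 and 3510 bp with 25HC, and 2659 and 4773 bp with 25HC then PAM3. Its libraries overlapped across all but the PAM3 group, which lay below every other library. Cd68, a macrophage glycoprotein of the same family, had 5835 and 5008 bp untreated, 2641 and 5382 bp with PAM3, 5176 and 4727 bp with 25HC, and 4261 and 4363 bp with 25HC then PAM3. Laptm5, a membrane protein of blood cell lysosomes, had 6805 and 6380 bp untreated, 4676 and 7701 bp with PAM3, 5770 and 5939 bp with 25HC, and 4826 and 5677 bp with 25HC then PAM3. In Cd68 and Laptm5 the PAM3 libraries lay further apart from each other than the libraries of any other group. Mcoln1, the lysosomal calcium channel, had 4211 and 4225 bp untreated, 5074 and 4558 bp with PAM3, 4338 and 5437 bp with 25HC, and 4458 and 4385 bp with 25HC then PAM3, with overlapping groups and an average PAM3 effect of 0.03 (limma adjusted p = 0.880).

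None of the 11 protease genes passed in any comparison, where at most 11.8% of all genes passed (the average PAM3 effect). Ctss, the cathepsin that trims the invariant chain for antigen presentation, had the largest average PAM3 effect among them, 0.71 (limma adjusted p = 0.0782). It had 3635 and 4306 bp untreated, 3632 and 8038 bp with PAM3, 2751 and 3527 bp with 25HC, and 6563 and 6680 bp with 25HC then PAM3. After 25HC the groups did not overlap, while the PAM3 library of mouse A was level with the untreated library of the same letter. Ctsc, which activates granule proteases, spread most, from 2833 bp (PAM3, mouse A) to 12002 bp (25HC then PAM3, mouse B). Ctsb, a broad cysteine protease, had 9885 and 10809 bp untreated, 8871 and 9053 bp with PAM3, 8641 and 8238 bp with 25HC, and 9982 and 10779 bp with 25HC then PAM3. Ctsd had 3938 and 5167 bp untreated, 4170 and 5308 bp with PAM3, 4654 and 5009 bp with 25HC, and 2179 and 4015 bp with 25HC then PAM3. Ctsk, the collagen-degrading cathepsin of osteoclasts, had 6817 and 5479 bp untreated, 3643 and 6171 bp with PAM3, 6146 and 7550 bp with 25HC, and 7711 and 6180 bp with 25HC then PAM3. In Ctsb and Ctsd the PAM3 effect had opposite signs with and without 25HC, and neither difference passed (0.41, limma adjusted p = 0.496, and −0.74, limma adjusted p = 0.574). The other 6 (Ctsa, Ctsh, Ctsl, Ctsz, Scpep1 and Tpp1) had average PAM3 effects of −0.34 to 0.28.

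Of the 10 hydrolase and cofactor genes, Sgsh alone passed, where at most 11.8% of all genes passed in a comparison. Gusb, β-glucuronidase, was the 1 gene of the 39 higher in all 4 libraries with 25HC than in any without, against 1.03% of all genes, and none was lower, against 1.89%. It had 4150 and 4104 bp untreated, 3472 and 4026 bp with PAM3, 4751 and 4731 bp with 25HC, and 5012 and 4891 bp with 25HC then PAM3, and its average 25HC effect was 0.30 (limma adjusted p = 0.183). Glb1, β-galactosidase, had 1525 to 1556 bp without PAM3 and 1594 to 2236 bp with it, an average effect of 0.20 (limma adjusted p = 0.428). Psap, the precursor of the saposins that help degrade sphingolipids, had 10313 and 8981 bp untreated, 5306 and 8179 bp with PAM3, 3682 and 6758 bp with 25HC, and 5294 and 5674 bp with 25HC then PAM3. Untreated Psap was above all other libraries, but no difference passed. Lipa, the acid lipase that frees cholesterol from its esters, had 3839 and 8935 bp untreated, 5532 and 11684 bp with PAM3, 7623 and 8718 bp with 25HC, and 9124 and 6884 bp with 25HC then PAM3. Within the untreated and PAM3 groups the A and B libraries of Lipa differed by more than the group means did. Npc2 had 7872 and 7843 bp untreated, 7336 and 8142 bp with PAM3, 7735 and 7370 bp with 25HC, and 7397 and 7377 bp with 25HC then PAM3, with an average PAM3 effect of −0.01 (limma adjusted p = 0.924). Gaa, Gla, Hexa and Neu1 had average PAM3 effects of −0.16 to 0.22 and passed no test.

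The transcription factors that bind the E-box did not pass either. Tfeb had 16025 and 14891 bp untreated, 13198 and 13714 bp with PAM3, 13670 and 13874 bp with 25HC, and 13339 and 11566 bp with 25HC then PAM3. Its average PAM3 effect was −0.16 (limma adjusted p = 0.333), with the untreated libraries above all others. Tfe3 had 4726 and 3414 bp untreated, 1815 and 4289 bp with PAM3, 2276 and 3999 bp with 25HC, and 2823 and 2940 bp with 25HC then PAM3. The groups of Tfe3 overlap, with an average PAM3 effect of −0.24 (limma adjusted p = 0.577).

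The peaks of the 39 windows joined into 208 separate stretches over the 8 libraries. Of these, 71 were called in all 8 libraries and 42 in a single library. In 1 kb bins (called where peaks cover at least 50% of the bin; gained or lost where both libraries of a group have it and neither of the other), PAM3 against untreated gained 23 and lost 26 of 294 bins (7.82% and 8.84%, against 5.75% and 7.59% of the bins of all tested genes). After 25HC, PAM3 gained 22 and lost 22 of 289 (7.61% each, against 9.41% and 7.24%). 25HC against untreated gained 8 and lost 9 of 274 (2.92% and 3.28%, against 1.64% and 3.46%), and 25HC then PAM3 against PAM3 gained 12 and lost 8 of 269 (4.46% and 2.97%, against 5.58% and 4.59%). With PAM3 against untreated, Plekhm1 gained 5 bins and lost 1, Sgsh and Rab7 lost 3 each, and Atp6v0d2 lost 3 and gained 1. After 25HC, Plekhm1 gained 2 with PAM3, Sgsh lost 2, Atp6v0d2 lost 3 and gained 1, and Rab7 lost 1 and gained 1.

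Other lysosome genes were read from the same fit. Of 109 listed, covering further hydrolases, membrane transporters, sorting receptors, pump subunits, fusion factors and nutrient-sensing controls, 104 were tested. With PAM3 against untreated, 2 rose and 2 fell (3.85%, against 3.87% of all genes). Acp2, a lysosomal acid phosphatase, rose (log2 0.89, limma adjusted p = 0.0238), as did Acp5, the tartrate-resistant phosphatase of osteoclasts and macrophages (0.72, limma adjusted p = 0.0379). Gga3, an adaptor that sorts hydrolase receptors, fell (−1.19, limma adjusted p = 0.0310), as did Tpcn2, an ion channel of the lysosomal membrane (−0.78, limma adjusted p = 0.0489). With the mouse as a block these 4 did not pass (0.0541 to 0.0877). After 25HC, 2 rose and 2 fell (3.85%, against 5.02% of all genes). Acp2 (0.83, limma adjusted p = 0.0243) and the sorting adaptor Gga2 (1.19, limma adjusted p = 0.0257) rose. Tpcn2 (−1.04, limma adjusted p = 0.0246) and Ctsf, another cathepsin (−0.72, limma adjusted p = 0.0491), fell. Of these, Gga2 alone passed with the block (0.0341), the others having 0.0518 to 0.0605.

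Acp2 showed the cleanest separation, with 2718 and 2566 bp untreated, 5159 and 5096 bp with PAM3, 2366 and 2708 bp with 25HC, and 4983 and 4991 bp with 25HC then PAM3. Tpcn2 had 14940 and 17066 bp untreated, 8846 and 8708 bp with PAM3, 12928 and 14756 bp with 25HC, and 5859 and 7411 bp with 25HC then PAM3. In both genes the A and B libraries of a group lay close together and the libraries with PAM3 apart from the rest. On average over PAM3, 8 rose and 5 fell (12.5%, against the 11.8% of all genes). Those that rose were Acp2 (0.86), Acp5 (0.54), Mitf, a relative of Tfeb (0.66), Fnip1, a partner of folliculin (1.21), the pump subunits Atp6v1e2 (1.88) and Atp6v0a2 (0.56), the metal transporter Slc11a1 (0.41) and Gga2 (0.54). Those that fell were Tpcn2 (−0.91), Gga3 (−1.02), Ctsf (−0.50), the kinesin adaptor Plekhm2 (−0.61) and the α-mannosidase Man2b1 (−0.77). The block ended the calls of Plekhm2, Slc11a1 and Atp6v0a2 (limma adjusted p = 0.0602, 0.0672 and 0.0590). None of the 104 passed in either comparison of 25HC or in the difference of the PAM3 responses. Of all genes, 0.0343% passed in 25HC against untreated, 1.3% in 25HC then PAM3 against PAM3 and 0% in the difference.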

How the data were processed

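The submitters' processing notes name GSNAP, MACS2 2.1.0 and GRCm38 (mm10); thresholds and control libraries are not given in the sources. The deposited lists, 1 per library, give peak bounds with the authors' score, fold ratio over background, and −log10 p and −log10 q per peak. They hold no counts, so depth is unknown. The −log10 q was used only as a filter in alternatives, because the deposited per-peak values hardly repeated between libraries (closing section).

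Called length per gene window (RefSeq bounds on GRCm38.p6) was fitted as log2(bp + 500), minus each library's median, in 1 limma 3.58.1 model of 4 groups (R 4.3.3; trend and robust settings; 4 residual and a median of 1.77 prior degrees of freedom), with 7 contrasts, Benjamini-Hochberg adjustment over 14589 genes and a threshold of 0.05. Without that subtraction the contrasts' medians shifted by −0.06 to 0.07. The fit was also run on simulated data with independent normal noise and known shifts in the PAM3 group. How many shifts it recovered is not given here. The simulated data held no group at 0 bp, so that run does not bear on calls that rest on such a group.

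Letters were taken to mark the same animal, although deviations of same-letter libraries correlated by only −0.0170 to 0.0304. Blocked values stand beside results whose call they end. The members and lists were chosen with earlier results of these data known. Values per library are given for members called in any contrast, the 3 smallest p in each contrast that is not an average, and further members fixed by name. Covered length was compared with a two-sided exact permutation test.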

Additional observations from a re-analysis of the deposited data

How the results depend on the processing

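The number of the 39 genes called moved with the setting. Filtering peaks at a −log10 q of 5 or more made it 0 in every contrast, as it did for all 13422 genes then tested. After 25HC, PAM3 called 1 with no median subtraction, 1 with equal peak numbers in each library and 1 with the mouse as a replicate block. With that paired fit, 25HC against untreated, the average 25HC effect and 25HC then PAM3 against PAM3 each called 0; the last was also 0 with the same number of peaks. The block ended 5 single-gene calls (Sgsh after 25HC, Atp6v1g3 against PAM3, Atp6v0d2 on average and Rab29 in both 25HC contrasts) and changed no other. The average PAM3 effect called 3 with the same number of peaks. The average 25HC effect called 0 with 2 kb flanks, 1000 bp added, no median subtraction or equal peak numbers. With only peaks of at least 500 bp (78.2% to 82.7% of peaks), an alternative chosen after seeing the data, the difference of the PAM3 responses called 1. Leaving out 1 library gave 1 to 3 genes called for PAM3 against untreated, 0 to 3 after 25HC, 0 to 1 for 25HC against untreated, 0 to 1 for 25HC then PAM3 against PAM3, 0 to 2 for the difference, 2 to 5 for the average PAM3 effect and 0 to 2 for the average 25HC effect. Over all genes those refits called 160 to 872 for PAM3 against untreated, 108 to 814 after 25HC and 714 to 1861 on average, against 564, 733 and 1724. For 25HC against untreated they called 0 to 97 against 5, for 25HC then PAM3 against PAM3 0 to 434 against 190, for the difference 0 to 192 against 0, and for the average 25HC effect 0 to 240 against 10. The median log2 change of the 39 genes with PAM3 alone ran from −0.09 to 0.02 over them.

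The filter of −log10 q at 5 reversed 4 values: Gusb in 25HC then PAM3 against PAM3 (−1.23), Atp6v1g3 in the difference (1.14), Rab29 in the average PAM3 effect (−0.59) and the difference in covered length with PAM3 (−4.87 Mb, two-sided exact permutation p = 0.229, in place of 0.954 Mb, p = 0.829; the smallest possible is 0.0286). The cause was not tested. Of 210 single-gene values under other settings, 176 kept their direction and side of the threshold, 29 fell out, 2 came in and 3 reversed. Leaving out libraries, 123 of 168 kept both, 42 fell out and 3 came in.

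Bins of 1 kb moved with their definition. Called at any overlap, 46 of 493 were lost with PAM3 (9.33%, against 6.44% of all genes' bins), 41 gained and 41 lost of 478 after 25HC (8.58% each, against 8.81% and 6.47%), 13 gained and 19 lost of 458 with 25HC (2.84% and 4.15%, against 1.62% and 3.29%), and 17 of 462 lost in 25HC then PAM3 against PAM3 (3.68%, against 4.61%). Much of that move is the larger number of bins. Called at 80% covered, 13 of 199 were lost after 25HC (6.53%, against 8.01%), 5 of 193 gained with 25HC (2.59%, against 1.74%) and 4 of 182 lost in 25HC then PAM3 against PAM3 (2.20%, against 4.73%). With the q filter, 15 of 243 were gained with PAM3 (6.17%, against 4.29%), and 5 gained and 15 lost of 243 with 25HC (2.06% and 6.17%, against 3.45% and 6.08%). Groups of 2 libraries limit what can be shown, and with no depth in the files a peak not called is not an absent mark.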

Other observations

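Within 1 kb of a start, 3 of the 33 lysosome genes with a start had more called length with PAM3 although their whole windows passed no test. Of the 11703 tested genes with a start, 4.77% were higher in that stretch in every library with PAM3 than in any without. There Ctsk, the collagen-degrading cathepsin, had 567 and 536 bp untreated, 1513 and 1127 bp with PAM3, 506 and 1071 bp with 25HC, and 1782 and 1774 bp with 25HC then PAM3. Lipa, the acid lipase, had 1005 and 997 bp untreated, 1264 and 1251 bp with PAM3, 993 and 986 bp with 25HC, and 1029 and 1309 bp with 25HC then PAM3. Laptm5 had 1456 and 1568 bp untreated, 1831 and 2001 bp with PAM3, 1466 and 1622 bp with 25HC, and 1775 and 1742 bp with 25HC then PAM3. In these genes every library with PAM3 exceeded every library without, while Sgsh and Atp6v1a were lower, as were 7.61% of the 11703 genes. The whole peaks over these starts were not all longer: that of Laptm5 was 2262 and 4036 bp with PAM3 and 2039 and 2221 bp with 25HC then PAM3, against 2346 to 2549 bp in the 4 libraries without PAM3. These lengths were not tested, and in Lipa the nearest libraries, 1029 bp with PAM3 and 1005 bp without, lay close together. In Ctsk the nearest libraries had 1127 bp with PAM3 and 1071 bp without. Those of Atp6v1a lay closer still, with 1867 to 1969 bp with PAM3 and 1974 to 2001 bp without. For a gene with 1 start, 2001 bp is the most this measure can reach.

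The authors' values per peak hardly repeated between the 2 libraries of a group. Over matched peaks, Spearman's rho was 0.0848 to 0.167 for −log10 q and 0.103 to 0.199 for fold, in contrast to 0.706 to 0.861 for peak length. Within a library, −log10 q followed the peak's own length with a rho of 0.0595 to 0.0788 and the −log10 q of the next peak in the list with 0.535 to 0.564. These are correlations across peaks, which are not independent replicates. Whether the values belong to the peaks beside them was not tested.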
